A study of Mus musculus with 3 samples.

Results

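Most Zrf1 peaks in mouse neural progenitor cells were narrow, stood alone and carried no Ring1B peak. These isolated Zrf1 peaks numbered 8135 of the 11647 peaks in the Zrf1 list, or 69.8% (exact 95% binomial interval 69.0 to 70.7%). They were selected on the deposited mm9 intervals by 3 conditions. The peak was narrower than 1700 bp, overlapped no Ring1B interval by even 1 bp, and lay more than 5000 bp from the next Zrf1 peak on either side. For the 25 members that were the first or last Zrf1 peak of their chromosome, only the side with a neighbour was used.

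The cells were neural progenitors derived in culture from the mouse embryonic stem cell line E14TG2a and kept in N2 medium with EGF and FGF2. Chromatin immunoprecipitation and sequencing was done once each with an antibody against Zrf1, an antibody against Ring1B and rabbit IgG. All 3 libraries came from the same kind of cells with no further treatment or genotype named. The study set out to compare where the 2 proteins bind. The peak lists of Zrf1 and Ring1B, the latter with 11790 peaks, were used here, and signal from the IgG library was not analysed here. With 1 library per antibody there is no replicate error, so intervals cover counting error only, peaks are not replicates, and no difference between classes was tested. Read depth is unknown from the lists.

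Zrf1, the product of Dnajc2, is a J-domain protein that assists protein folding at the ribosome in the cytosol and also binds chromatin. There it recognises histone H2A carrying the single ubiquitin that Polycomb repressive complex 1 attaches. Ring1B, the product of Rnf2, is a catalytic subunit of that complex and is best known for keeping developmental regulator genes silent in stem and progenitor cells. A Zrf1 peak with no Ring1B peak is a place where Zrf1 was called without Ring1B, although a missing call does not show a missing protein. Ubiquitinated H2A was not profiled in these libraries, so its presence at the peaks is unknown.

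The remaining 3512 peaks of the Zrf1 list failed at least 1 condition. Of these, 533 (4.58% of the list) were 1700 bp or wider. A further 1710 narrower peaks (14.7%) overlapped Ring1B, and 1269 (10.9%) had no Ring1B but another Zrf1 peak within 5000 bp. Among peaks under the width limit, the share on Ring1B was similar for isolated and clustered peaks. Ring1B overlapped 1466 of 9601 isolated peaks (15.3%, 95% interval 14.6 to 16.0%) and 244 of 1513 clustered ones (16.1%, 95% interval 14.3 to 18.1%). The isolated peaks without Ring1B covered 6.49 Mb, which was 61.0% of all sequence under Zrf1 peaks.

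Peaks near the limits of the rule differed from each other by little. The widest member, on chromosome 6 from 80441446 to 80443141, measured 1695 bp. The narrowest peak left out for width alone, also on chromosome 6 (53033569 to 53035277), measured 1708 bp. The closest pair of members lay 5002 bp apart on chromosome 15, at 38378870 to 38379664 and 38384666 to 38385545. A chromosome 8 peak (86185790 to 86186862) with a gap of 4967 bp was left out. A chromosome 3 peak (89019048 to 89020452) was left out for a Ring1B overlap of 1 bp, while a chromosome 2 member (168586787 to 168587361) lay 2 bp from Ring1B.

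Isolated Zrf1 peaks without Ring1B were mostly 500 to 900 bp wide. Their median width was 739 bp, with quartiles at 618 and 913 bp, and 95% of the peaks were no wider than 1306 bp. The commonest 100 bp class was 600 to 700 bp, with 1826 members (22.4%). Only 19 members (0.234%) were under 400 bp and 274 (3.37%) were 1400 bp or wider. The upper bound of 1700 bp comes from the rule, and a width says nothing of how strong the signal was.

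Isolation made little difference to width, whereas overlap with Ring1B went with wider peaks. Clustered Zrf1 peaks without Ring1B, held to the same width limit, had a median of 779 bp (quartiles 637 and 986 bp). Isolated Zrf1 peaks on Ring1B had a median of 1033 bp (quartiles 839 and 1264 bp). The lower quartile of the latter was thus above the median of the members. A wider peak has more room to overlap another interval, and the part of that in this difference was not tested.

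**Figure D1:**
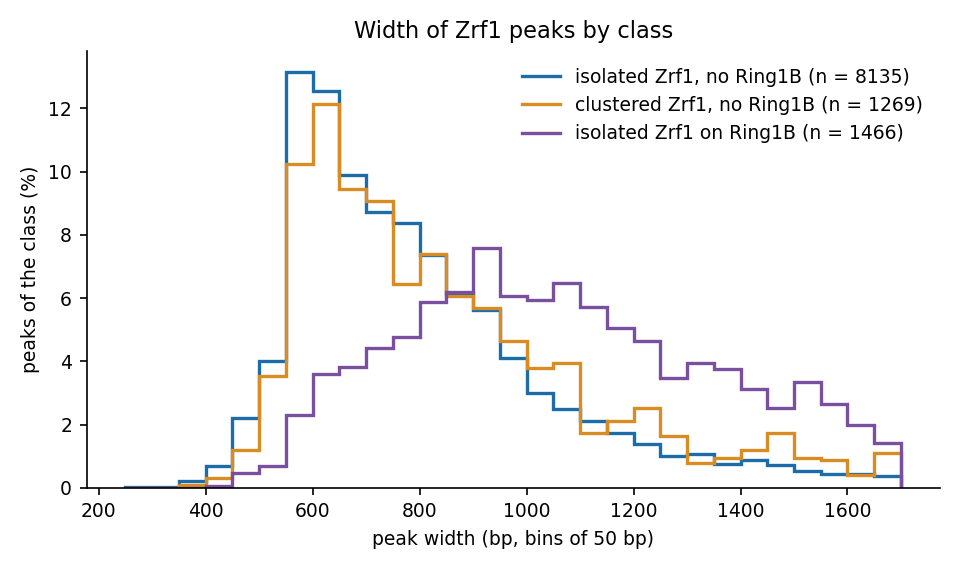
Share of peaks (%, vertical axis) by width in bins of 50 bp (horizontal axis) for 3 classes of Zrf1 peaks under 1700 bp. The 2 classes without Ring1B nearly coincide, with medians of 739 and 779 bp, and the class on Ring1B lies to the right, with a median of 1033 bp.

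The narrowest and the widest members both spanned a broad range of distances to Ring1B. The narrowest member measured 295 bp and lay on chromosome 9 from 102676071 to 102676366, with Ring1B 9350 bp away. The next 4 measured 348 to 359 bp and were on chromosomes 11, 10, 4 and 14, where the gap to Ring1B ran from 22728 to 794858 bp. The 5 widest measured 1690 to 1695 bp and lay on chromosomes 6, 3, 4, 17 and 14. Their gaps to Ring1B ran from 21677 bp on chromosome 4 (32073700 to 32075393) to 1472197 bp on chromosome 6. Neither of these small sets was confined to the neighbourhood of Ring1B.

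Ring1B lay within 5 kb of few isolated Zrf1 peaks and within 500 kb of most. The median gap to the nearest Ring1B peak, edge to edge, was 50.3 kb, with quartiles at 18.4 and 129 kb, over the 8133 members on chromosomes with Ring1B peaks. A Ring1B peak lay within 1 kb of 105 members (1.29%, 95% interval 1.06 to 1.56%) and within 5 kb of 530 (6.52%, 95% interval 5.99 to 7.07%). The share reached 49.8% within 50 kb (4048 members) and 95.7% within 500 kb. For scale, all Ring1B peaks numbered 7.01 per Mb within 5 kb of the members, above their mean of 4.44 per Mb over the chromosomes. Shares for evenly placed sites were not computed. Ring1B lay within 50 kb on both sides of 1122 members (13.8%), on 1 side of 2926 (36.0%) and on neither side of 4087 (50.2%). The nearest Ring1B peak was on the lower-coordinate side of 50.4% of members, so there was no preferred side.

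Clustered Zrf1 peaks without Ring1B lay closer to Ring1B than isolated ones when all Ring1B peaks were counted. Their median gap was 28.4 kb, and 18.0% (229 of 1269, 95% interval 16.0 to 20.3%) had Ring1B within 5 kb. This contrast is set in part by the rule. A Ring1B peak close to a clustered Zrf1 peak may sit on its Zrf1 neighbour, which the gap of 5000 bp bars for isolated peaks. Counting only Ring1B peaks that overlap no Zrf1 peak, there were 7.01 per Mb within 5 kb of clustered and 6.85 within 5 kb of isolated Zrf1 peaks, against 20.5 and 7.01 with all Ring1B peaks. That narrower count is not even-handed either, since it leaves out all Ring1B on the Zrf1 neighbours of clustered peaks. Neighbours within 5 kb fell from 260 to 89 for clustered peaks and from 570 to 557 for isolated ones. The same rule turned round, applied to Ring1B peaks without Zrf1, selected 5585 of 11790 Ring1B peaks. Of these, 391 (7.0%, 95% interval 6.35 to 7.70%) had Zrf1 within 5 kb and 52.9% within 50 kb, close to the shares of the isolated Zrf1 peaks.

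**Figure D2:**
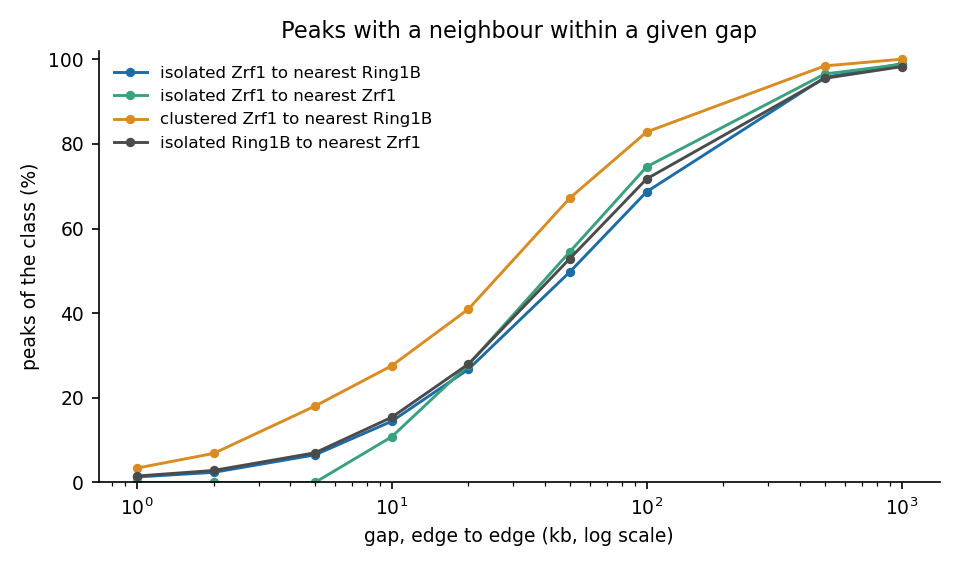
Share of peaks (%, vertical axis) with a neighbour within a given edge-to-edge gap in kb (horizontal axis, log scale). The curve of isolated Zrf1 peaks to Ring1B passes 6.52% at 5 kb and 49.8% at 50 kb, below that of clustered Zrf1 peaks, and the curve to the nearest Zrf1 peak is 0 up to 5 kb by the rule.

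The neighbourhood of isolated Zrf1 peaks held more Ring1B than the chromosome mean out to 1000 kb, with a shallow dip next to the peak. Since the rule bars shared Ring1B peaks nearby, only the 9834 Ring1B peaks that overlap no Zrf1 peak were counted. Their mean over the chromosomes, X and Y included, was 3.70 per Mb. Around the members it was 7.82 per Mb at 5 to 100 kb, 7.30 at 100 to 200 kb and 6.26 at 500 to 1000 kb. Other Zrf1 classes were richer at 5 to 100 kb, with 10.3 per Mb for clustered peaks without Ring1B and 11.5 for isolated peaks on Ring1B. Within 5 kb of the members the density was 6.85 per Mb (557 Ring1B neighbours), and the lowest value, 5.59 per Mb (95% Poisson interval 4.50 to 6.87), was at 1 to 2 kb.

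The density within 5 kb was 0.876 of that at 5 to 100 kb (95% interval 0.803 to 0.953). The interval treats neighbours as independent, although 1 Ring1B peak can be counted from several members. The ratio was below 1 on 16 of 19 autosomes, from 0.502 on chromosome 18 to 1.21 on chromosome 19, and its interval lay below 1 on 2 of them. Clustered Zrf1 peaks without Ring1B gave 0.683 (95% interval 0.546 to 0.844), but this count leaves out Ring1B on their Zrf1 neighbours within 5000 bp. With all Ring1B peaks their ratio was 1.53 (95% interval 1.34 to 1.74). The reversed rule, Zrf1 around isolated Ring1B, gave 0.961 (95% interval 0.868 to 1.06). Isolated Zrf1 peaks on Ring1B had a denser near range, with 17.3 further Ring1B peaks per Mb within 5 kb against 11.5 at 5 to 100 kb, a ratio of 1.51 (95% interval 1.32 to 1.72). Both Zrf1 classes without Ring1B were chosen for having no overlap, and the part of that choice in the dip was not tested.

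**Figure D3:**
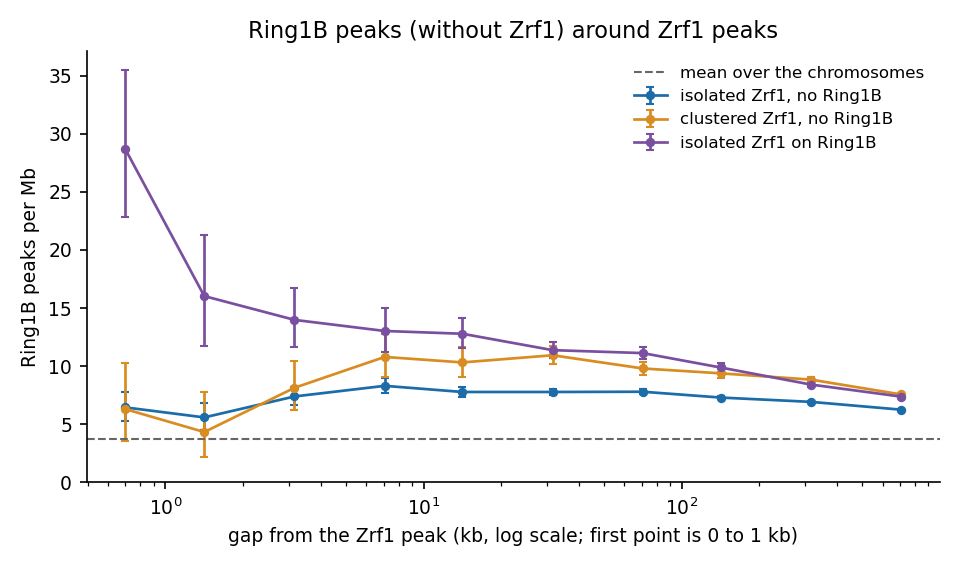
Ring1B peaks without Zrf1 per Mb (vertical axis) by gap from the Zrf1 peak in kb (horizontal axis, log scale); error bars are 95% Poisson intervals and the dashed line is the mean over the chromosomes, 3.70 per Mb. Isolated Zrf1 peaks stay above the line at every distance shown, with the lowest point at 1 to 2 kb, while isolated Zrf1 peaks on Ring1B rise to 28.6 per Mb within 1 kb.

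The Ring1B peaks nearest to the members were of ordinary width. Those within 5 kb had a median of 1280 bp (530 nearest pairs), and those without Zrf1 at 5 to 50 kb had 1287 bp. All Ring1B peaks without Zrf1 had a median of 1306 bp. Where the nearest Ring1B peak was more than 5 kb away, it sat on another Zrf1 peak in 16.7% of cases (1273 of 7603), against 16.6% of all Ring1B peaks.

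The members closest to Ring1B abutted single Ring1B intervals without touching them. After the chromosome 2 member, whose Ring1B neighbour measured 2032 bp (168587363 to 168589395), came a member of 1053 bp on chromosome 15 (98887146 to 98888199) with a gap of 6 bp. A member on chromosome 11 (116247996 to 116248618) had a gap of 11 bp, 1 on chromosome 4 (149153659 to 149154468) of 21 bp and 1 on chromosome 8 (73301903 to 73303039) of 32 bp. Gaps this small are far below the width of either peak, so a slightly wider call would have put these members in the shared class.

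Wider members lay closer to Ring1B. With the members ranked by width and cut into 10 equal groups, the share with Ring1B within 50 kb was 44.7% in the narrowest group (295 to 564 bp) and 58.1% in the widest (1131 to 1695 bp). The 95% intervals, 41.3 to 48.2% and 54.6 to 61.5%, cover counting error only and treat members as independent, although several members can share 1 Ring1B peak. In the 8 groups between, the share ran from 46.8 to 54.1%. The median gap to the nearest Zrf1 peak also differed between the ends of the ranking, at 58.7 kb in the narrowest group and 34.4 kb in the widest. Members more than 500 kb from Ring1B had a median width of 677 bp (348 members), against 812 bp for those 1 to 5 kb away (425 members) and 779 bp for those within 1 kb (105 members). Width and local peak density thus moved together, and their parts were not tested.

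Most members were well over the required gap from other Zrf1 peaks. The median gap to the nearest Zrf1 peak was 43.1 kb, with quartiles at 17.8 and 101 kb, and 878 members (10.8%) had a Zrf1 neighbour at 5 to 10 kb. The nearest Zrf1 neighbour was itself a member in 77.4% of cases, against 69.8% of the list, a difference that the exclusion of clustered peaks favours. It was on Ring1B in 15.3% of cases, against 17% of the list. The nearest peak of either protein was Ring1B for 48.8% of the members, and necessarily so for the 530 with Ring1B within 5 kb, where the rule bars Zrf1. Among the other 7605 members it was Ring1B for 45.2% (3437 members).

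A minority of members had no other peak of either list nearby. No other peak of either list lay within 100 kb of 1164 members (14.3%), nor within 500 kb of 104 (1.28%). The members farthest from other Zrf1 peaks were on the X chromosome at 17148964 to 17149546, with a gap of 4.90 Mb to the nearer neighbour, and on chromosome 1 at 115343012 to 115343563, with 4.86 Mb. The next 3 were all on the X chromosome. These 5 measured 548 to 582 bp. The members farthest from Ring1B formed 2 pairs: chromosome 1 at 148843805 to 148844486 and 149254792 to 149255493, and chromosome 14 at 90604608 to 90605199 and 90858433 to 90859340. Their gaps to Ring1B ran from 2.65 to 3.10 Mb, and a chromosome 14 member at 109439770 to 109440398 followed with 2.63 Mb.

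Every chromosome carried isolated Zrf1 peaks, at densities that went with those of Ring1B. Autosomes held 3.27 members per Mb, from 2.21 on chromosome 14 to 5.18 on chromosome 11. Members made up 63.3% of the Zrf1 peaks on chromosome 15 and 75.4% on chromosome 13, the ends of the autosomal range. Across the 19 autosomes, members per Mb and Ring1B peaks per Mb had a Spearman's rho of 0.78, as a description of chromosomes that share the same libraries. The share of members within 50 kb of Ring1B went from 35.4% on chromosome 14 to 65.5% on chromosome 19. Median width varied little among the autosomes, between 708 bp on chromosome 12 and 774 bp on chromosome 15.

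The X chromosome had few Zrf1 peaks of any class, and its members were far from Ring1B. It carried 42 members (0.252 per Mb), which is 0.516% of the members (95% interval 0.372 to 0.697%), and 71 peaks or 0.610% of the whole Zrf1 list (95% interval 0.476 to 0.768%). The Y chromosome carried 2 members. Of the 42, 1 had a Ring1B peak within 50 kb (2.38%), against 50.02% of the autosomal members, and the median gap to Ring1B was 394734 bp against 49954 bp. Ring1B peaks were also sparse on the X chromosome, at 0.780 per Mb. Whether E14TG2a cells carry 1 copy of it was not examined, and copy number, mappability and binding cannot be told apart from intervals.

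**Figure D4:**
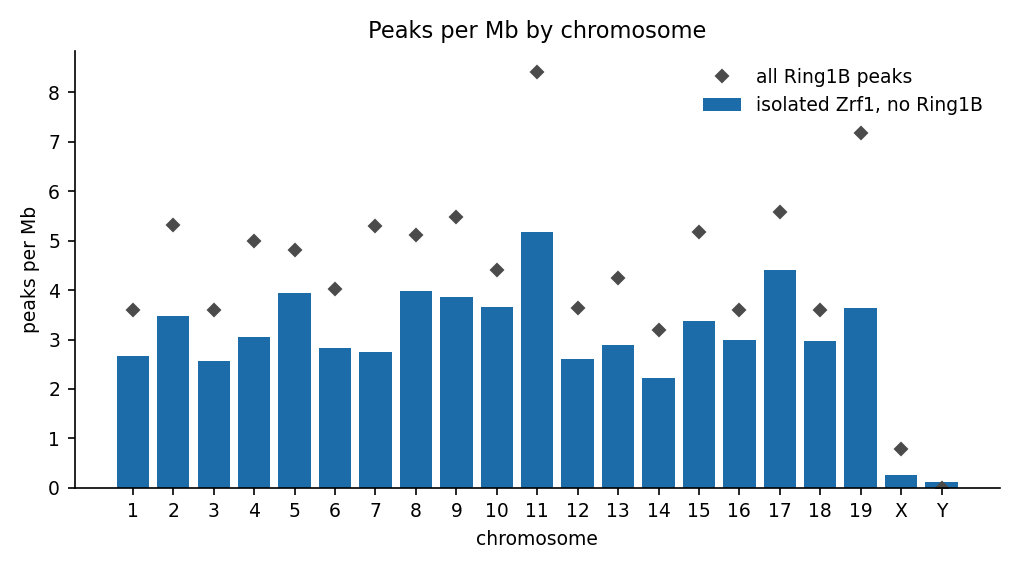
Isolated Zrf1 peaks without Ring1B per Mb (bars) and all Ring1B peaks per Mb (diamonds) for each chromosome (horizontal axis). Chromosome 11 has the most of both, with 5.18 members per Mb, and the X chromosome has 0.252 members per Mb.

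Isolated Zrf1 peaks were concentrated towards the high-coordinate ends of the autosomes. Mouse chromosomes have their centromere at the low-coordinate end, so this is the end far from the centromere. The final 10% of chromosome length held 1746 of 8091 autosomal members, which is 21.6% (95% interval 20.7 to 22.5%), at 7.06 per Mb. The first 9 segments of equal length held between 1.98 per Mb, in the first, and 4.10 per Mb, in the ninth. Densities were per Mb of full segment length, and how much of each segment could be mapped was not examined. The final segment was the densest on 13 of 19 autosomes. Its share was 35.4% on chromosome 8 and 31.0% on chromosome 16, but 7.64% on chromosome 17.

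The share in these end segments was larger for the members than for Ring1B peaks. The final 10% held 14.0% of the isolated Ring1B peaks without Zrf1 (95% interval 13.0 to 14.9%) and 15.0% of all Ring1B peaks. The members had a higher share there than isolated Ring1B peaks on 18 of 19 autosomes, the exception being chromosome 5 (16.8% against 17.8%). Over all 19 autosomes the median difference was 8.18 percentage points. Zrf1 peaks on Ring1B fell between, at 17.4% (95% interval 15.7 to 19.1%), and clustered Zrf1 peaks without Ring1B were highest, at 29.8% (95% interval 27.3 to 32.4%).

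Members in the final 10% lay closer to other Zrf1 peaks than members elsewhere, while their gaps to Ring1B were alike. Their median gap to the nearest Zrf1 peak was 27.1 kb against 49.3 kb elsewhere. Their median gap to Ring1B was 49.3 kb against 50.1 kb, and the shares with Ring1B within 50 kb were 50.5% (95% interval 48.1 to 52.8%) and 49.9% (95% interval 48.7 to 51.1%). Median widths were 752 and 735 bp. Ring1B itself was denser in the final 10%, with 7.07 peaks per Mb for all Ring1B peaks, against 2.56 to 5.91 in the other segments. Alike gaps thus do not mean alike Ring1B density. Base composition and gene content of these segments were not analysed here, and their part was not tested.

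**Figure D5:**
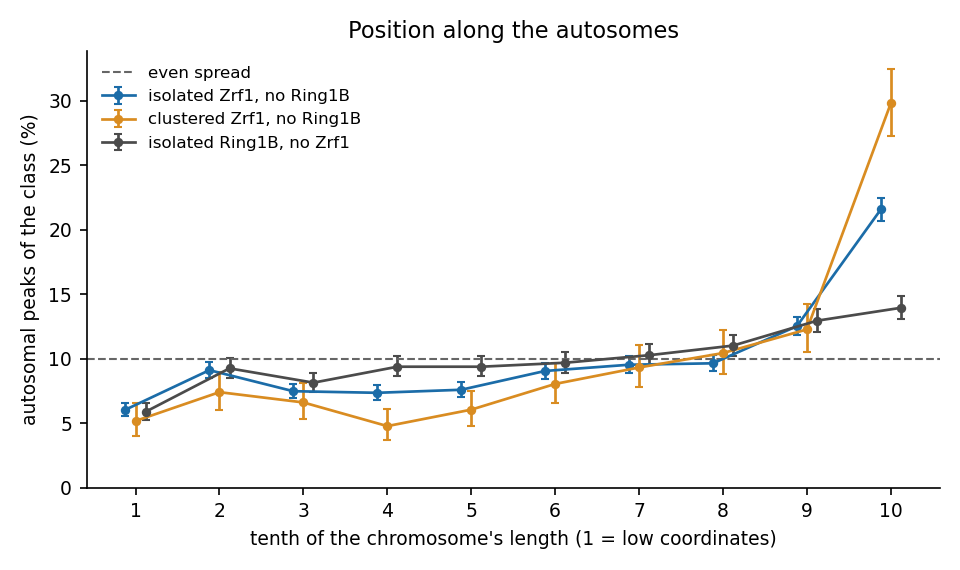
Share of autosomal peaks of a class (%, vertical axis) in each of 10 equal segments of chromosome length (horizontal axis, 1 at the low-coordinate end); error bars are exact 95% binomial intervals and the dashed line marks an even spread. In the last segment isolated Zrf1 peaks reach 21.6%, clustered Zrf1 peaks 29.8% and isolated Ring1B peaks 14.0%.

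Members were unevenly spread at the scale of 1 Mb. Of 2463 autosomal windows of 1 Mb, 669 (27.2%) held none, the median was 2, and 174 windows (7.06%) with 10 or more held 27.8% of the members. The richest windows, chosen after their counts were seen, held 26 members each. They were the window of chromosome 8 from 128000001 to 129000000 and that of chromosome 11 between 119000001 and 120000000. The chromosome 8 window held 5 Ring1B peaks and the chromosome 11 window 14. A window on chromosome 5, from 119000001 to 120000000, held 21 members and 1 Ring1B peak. The 5 longest stretches between neighbouring members were on the X chromosome, from 14.3 Mb up to 18.1 Mb (72980615 to 91048400). On the autosomes the longest was 8.52 Mb, on chromosome 7 (38949979 to 47471864).

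Windows with more Ring1B held more isolated Zrf1 peaks, but these made up a smaller part of their Zrf1 peaks. In the 604 windows with no Ring1B peak there were 380 members, a mean of 0.629 per window, and they were 94.3% of the Zrf1 peaks there. In the 459 windows with 6 to 10 Ring1B peaks the mean was 5.18 and the share 71.6%. In the 60 windows with more than 20 Ring1B peaks the mean was 9.28 and the share 49.6%. The share falls in part by the rule, since overlap needs a Ring1B peak. The counts of members and Ring1B peaks per window had a Spearman's rho of 0.70 across windows, which share the same libraries and are not replicates.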

How the data were processed

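The submitters' processing notes name the aligner Bowtie 0.12.7, the peak caller MACS 1.4.2 and the build mm9. The sources used here do not give the calling threshold, the control or later filters. The authors deposited 1 list each for Zrf1 and Ring1B with 3 columns (chromosome, start, end), no score and no other value. Starts are printed as deposited. Lists were assigned by the antibody in their name.

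Width was end minus start, and gaps were edge to edge. Neighbour densities counted non-overlapping Ring1B peaks on both sides of a Zrf1 peak, divided by the length searched. Chromosome lengths of mm9 came from GenomeInfoDb 1.38.1. Binomial intervals were exact (Clopper-Pearson), and Poisson and binomial intervals were at 95%. The rule was tested on simulated data, where 1197 of 1197 planted members among 6291 simulated peaks were recovered. Overlap counts equalled those of bedtools 2.31.1. Calculations ran in Python 3.11.15 (NumPy 2.4.6, SciPy 1.17.1) and plots in matplotlib 3.10.9.

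Named regions were the 5 narrowest, widest, most remote from Zrf1, nearest to and farthest from Ring1B, and those at the limits of the rule. The members and lists were chosen with earlier results of these data known. The planned comparisons by gene start, base composition, motif and gene list were not run, because the gene and promoter tables used here are for another build (GRCm38.p6) and coordinates were not converted; no sequence is printed.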

Additional observations from a re-analysis of the deposited data

How the results depend on the processing

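The number of isolated Zrf1 peaks without Ring1B stayed between 6758 and 8811 over 10 alternatives (other width and gap limits, other Ring1B rules, autosomes only, no first or last peaks, starts from 1, no chromosome ends). The share on the X chromosome, 0.516%, stayed between 0.499 and 0.565% over 9. The share with Ring1B within 5 kb, 6.52%, was 5.95% with a width limit of 1000 bp, 7.51% with gaps over 2000 bp, 5.29% with no Ring1B within 1000 bp and 4.55% between centres; the last 2 follow from their construction, and for the others the cause was not tested. The Ring1B density ratio, 0.876, was 0.692 with no Ring1B within 1000 bp, 0.722 with all Ring1B peaks and 0.611 between centres. These 3 are lowered by construction. The first drops members with near Ring1B, and the second adds shared peaks that the rule bars nearby. Between centres, the nearest distances are empty because the widths of peaks that do not overlap keep their centres apart. The other alternatives gave 0.822 to 0.880, and several hardly change the members. Values below 1 in all 12 alternatives are thus not 12 separate checks. The share in the final 10% of the autosomes, 21.6%, was 20.3% with gaps over 10000 bp and 20.6% without chromosome 8, and stayed above 20% in all 10. Chosen after seeing the data were the density ratio and position results, all alternatives of the X share, those on chromosome ends, first and last peaks and starts, and, for the 5 kb share, 50% coverage and autosomes only. The plan also did not list the width ranking, the reversed rule, the 1 Mb windows, the class widths or the Ring1B widths. Gene start, base composition and motif results were not run. No paired analysis was possible because each antibody had 1 library. Depth is unknown, so a missing peak does not show missing binding.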
